A study of Mus musculus with 8 samples.

Results

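Some HpaII sites of the mouse genome lie in sequence that occurs more than once, so that a short tag from such a site matches several places and is divided among them. In these liver methylation data some sites had fractions of a tag, which are read here as tags divided among several places. That reading was worked out from the values and no header or label states it. There were 44400 of these sites, called shared-tag sites. They were the autosomal sites listed in all 8 samples that had 10 to below 50 MspI tags and, in any sample or in the MspI reference, a tag value more than 0.05 from a whole number. They made up 5.53% of the 803187 autosomal sites in that MspI range, 3.51% of the 1263517 autosomal sites listed in all 8 samples, and part of the 1310003 sites listed in all 8 on any chromosome. The remaining 758787 sites in the range, with whole tags only, are called whole-tag sites and serve as the comparison.

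Livers of 8 C57BL/6J mice were compared, 4 fed a high-fat diet with lingonberries (lingonberry) and 4 fed the high-fat diet alone (HFD), to ask whether the berries altered methylation across the genome. Both groups thus ate the high-fat diet and no mice on another diet were included here. Age, sex and length of feeding were not given in the sources used here. DNA had been taken from frozen liver tissue, a mixture of cell types dominated by hepatocytes, and DNA methylation alone gave no marker check of that tissue. Each exact p-value between the diets measures the spread between these 4 samples a group. Those between kinds of site rest on a difference within each of the 8 samples, both diets together. The p-values of single sites also draw on the spread at the other sites tested.

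HELP-tagging reads methylation with a pair of restriction enzymes. HpaII needs an unmethylated CpG within its CCGG site in order to cut, whereas MspI cuts in either state, and a tag is sequenced from the cut ends. The m-score runs from 0 at a site with no HpaII tag, the methylated end, to 100 at a site with no MspI tag, the unmethylated end. Repeated sequence in mammals comprises transposable elements, which are scattered over all chromosomes and are kept methylated in most somatic tissues, and segmental duplications, in which long blocks that can hold genes and their CpG-rich promoters occur again nearby or elsewhere. CpG-dense promoters are usually unmethylated, and the CpGs outside them usually methylated. No mm9 genome was used here, so no sequence is printed, no repeat family is named and no gene is assigned to a site. That these sites share tags was checked only through sites with equal values, and 36.7% of shared-tag sites had at least 1 such counterpart, sites without HpaII tags included.

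The samples held 16076961, 9974503, 6121989 and 10215066 HpaII tags with lingonberries and 7036766, 6530093, 5877080 and 7428108 with HFD. Lingonberry sample 1 was the deepest and the lingonberry depths spread more widely than the HFD depths. Across shared-tag sites, the m-scores of any pair of samples had a Pearson r between 0.829 and 0.898 over the 28 pairs, and no pair held the same values. These correlations run over sites, which are not independent replicates. The PCR tags carry no molecular identifiers, so statements on depth cover counting error only.

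The gap between whole and divided tags was wide. Of the sites in the range, 758105 had all their tag values within 0.001 of a whole number, 682 lay from 0.001 to 0.05 away, and 44400 lay further away. Of the shared-tag sites, 19252 had a fraction in the MspI tags only, 16108 in both MspI and HpaII tags, and 9040 in HpaII tags only. A site cannot show a fraction of an HpaII tag unless it has HpaII tags, so the last of these sets was chosen in part for being cut. Its mean m-score was 30.7 ± 0.93, against 24.4 ± 0.90 with a fraction in both and 14.2 ± 0.86 with a fraction in MspI only (SD over the 8 samples). For that reason the comparison with whole-tag sites is also given for the 35360 sites with a fraction in the MspI tags, whose choice does not use HpaII tags. At the edges of the choice, 173 sites lying 0.03 to 0.05 from a whole number had a mean m-score of 7.41 and 167 sites lying 0.05 to 0.07 away had 6.02. Sites with divided tags and 9 to below 10 MspI tags had 16.1 (2815 sites), as had those with 10 to below 11 (2624 sites). The 257 sites with 49 to below 50 MspI tags had 28.9 and the 260 sites with 50 to below 51 had 25.3.

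Divided tags often came in sets of sites with the same measurement. Of the 15430 shared-tag sites with HpaII tags in all 8 samples, 6130 (39.7%) had exactly the same m-score and signal in every sample as another shared-tag site. They formed 2447 sets of up to 10 sites. Of the 291365 whole-tag sites with HpaII tags in all 8 samples, 209 (0.0717%) had such a counterpart. Equal values in all 8 samples carry no separate information, so a set counts as a single measurement printed at several places. In 1467 of the 2447 sets (60.0%) the tag values became whole, within 0.01, when multiplied by the number of sites in the set and by no smaller number. Tags divided evenly among exactly those sites would give such values. In the other sets that multiplication did not give whole tags.

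Sites of a set usually lay on the same chromosome. All sites were on 1 chromosome in 1868 of the 2447 sets (76.3%), and 579 sets spanned several chromosomes. Of the 1740 sets of 2 sites, 1299 were on 1 chromosome, with a median distance of 159343 bp between the sites and quartiles of 33592.5 and 548348 bp. Copies in blocks also showed as repeated offsets. On chromosome 12, 14 pairs between 84251487 and 84605326 (mm9) were each exactly 269072 bp apart and 8 more, between 84342418 and 84681063, were 269071 bp apart. Their mean m-scores were 30.2 and 31.6. On chromosome 4, 11 pairs between 145930426 and 146499274 were each 545360 bp apart, and their mean m-score was 78.5, with values from 61.8 to 93.8. Another 11 pairs on chromosome 12, between 56223773 and 56343259, were 75064 bp apart and had a mean of 62.5. The blocks on chromosome 12 held sites across most of the scale, from 8.78 to 78.9 and from 17.3 to 83.7, whereas the 11 pairs on chromosome 4 all lay above 60.

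The largest sets with tags in all 8 samples, singled out after their values were seen, were of different kinds. One of 10 sites lay within a short stretch of chromosome 11, from 60374670 to 60493453, with gaps of 9206 to 30797 bp between consecutive sites and a median gap of 9236 bp. Each held 31.7 MspI tags, which became whole when multiplied by 10. The m-scores were 4.81, 0.599, 8.75 and 2.92 with lingonberries and 5.09, 4.58, 3.05 and 2.41 with HFD, from 45.0 HpaII tags over all sites and samples. All 8 samples were at the methylated end, and the groups overlapped. A second set of 10 sites was scattered over 6 chromosomes (4, 5, 8, 9, 14 and 19), with positions such as 132655571 on chromosome 4 and 62291904 on chromosome 9. Its m-scores were 16.8, 16.1, 10.2 and 13.4 with lingonberries and 17.5, 9.61, 26.4 and 6.78 with HFD, and the groups overlapped again. A set of 10 sites on chromosome 4 from 41737490 to 42766885 had gaps of 57506 to 245399 bp. Its m-scores were 24.9, 22.7, 31.7 and 26.4 with lingonberries and 38.7, 51.6, 27.8 and 33.5 with HFD, from 189 HpaII tags in all. The samples overlapped at this set as well, since HFD sample 3 lay below lingonberry sample 3. A set of 9 sites on the same stretch, from 41742462 to 42771845, had m-scores from 17.6 to 31.0 with lingonberries and from 7.52 to 47.9 with HFD. The remaining set of 9 sites, on chromosome 14 from 42316100 to 44199937, had m-scores from 4.47 to 11.99 with lingonberries and from 2.12 to 17.3 with HFD. By number of sites alone, the largest sets were of 128 sites with 10.5 MspI tags and 104 sites with 11.5 MspI tags, both spread over 19 chromosomes. None of these sites had an HpaII tag in any sample, so their equality rests on the MspI value alone and does not show that they share tags.

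Among the sets of 2 sites, the means by distance between the copies lay from 41.2 to 49.4, in no order of distance. Counting each set once, the mean m-score was 45.0 ± 1.62 for the 156 pairs under 10 kb apart, 46.3 ± 1.59 for the 386 pairs at 10 to 100 kb, 41.2 ± 1.87 for the 576 at 100 kb to 1 Mb, 45.9 ± 1.63 for the 181 further apart on a chromosome and 49.4 ± 0.70 for the 441 on 2 chromosomes (SD over the 8 samples). Larger sets were lower, with 41.2 ± 1.16 for 426 sets of 3, 39.5 ± 0.94 for 153 sets of 4 and 30.7 ± 1.52 for 128 sets of 5 or more. All these sets were required to have tags in every sample, which raises their levels above those of shared-tag sites as a whole, and no test was made between them. A tag divided among more sites meets that requirement at a smaller value. The set of 10 on chromosome 11 met it with 0.1 of a tag in lingonberry sample 2. Larger sets can thus enter at lower m-scores, so the order by set size cannot be told apart from this requirement.

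Shared-tag sites had a lower mean m-score, nearer the methylated end, than whole-tag sites in every sample. Their mean m-score was 20.6, 20.2, 20.7 and 20.6 in the lingonberry samples and 21.5, 22.1, 22.8 and 21.6 in the HFD samples. Whole-tag sites had 27.8, 27.0, 27.8 and 28.2 with lingonberries and 28.6, 29.4, 30.1 and 28.8 with HFD. No shared-tag value reached the lowest whole-tag value. Shared-tag minus whole-tag was -7.21 ± 0.22 (SD over the 8 samples) and below 0 in 8 of 8 samples (two-sided exact paired permutation test, p = 0.0078, the smallest possible with 8 samples, adjusted p = 0.0078 over 6 such comparisons). For the 35360 sites with a fraction in the MspI tags the difference was -9.63, and with whole-tag sites weighted to the same MspI tags and neighbour numbers it was -6.49. It was -12.9 with sites of 1 to below 50 MspI tags and -15.4 with every set of equal values counted once, a step that also merges sites without HpaII tags that happen to have the same MspI value. With only the sets having tags in all 8 samples counted once it was -8.99 (exact p = 0.0078 for each). The test covers the spread between these libraries, in which the same sites were measured 8 times. The m-score is relative to the MspI tags, and how HpaII and MspI tags were divided was not given. The part of tag division in the lower m-score was not tested.

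The lower mean came from more sites near 0 and fewer near 100. Of shared-tag sites, 50.3% had a mean m-score below 10 over the 8 samples, against 38.2% of whole-tag sites. In the 2 classes from 70 to below 90 the shares were 4.51% and 4.16% of shared-tag sites and 7.09% and 6.68% of whole-tag sites. No HpaII tag was found in any of the 8 samples at 10.1% of shared-tag and 7.25% of whole-tag sites. The median number of MspI tags was 20.7 at shared-tag and 23.0 at whole-tag sites, and the median of the mean HpaII tags was 0.972 and 1.75. At that depth a site with few tags is placed only roughly on the scale, and means over many sites carry the comparison.

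**Figure D1:**
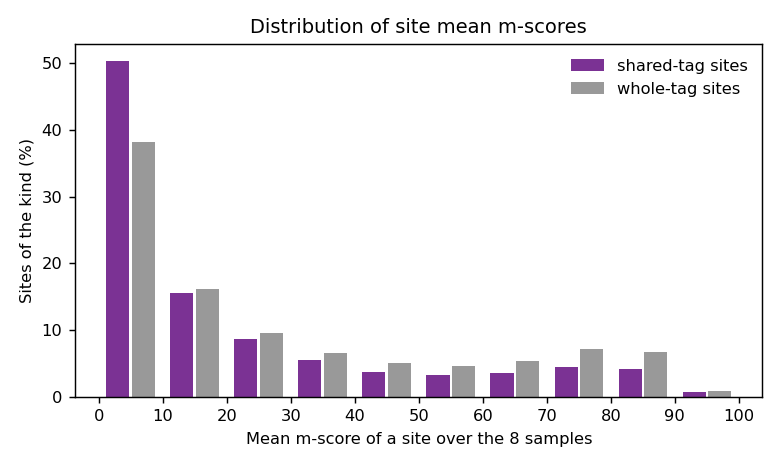
Share of sites (%) by mean m-score over the 8 samples, in steps of 10, for 44400 shared-tag and 758787 whole-tag sites. The lowest step holds 50.3% of shared-tag and 38.2% of whole-tag sites, and every higher step holds a smaller share of shared-tag sites.

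The difference from whole-tag sites was below 0 at every local density of HpaII sites. It was widest at clustered sites unless every set of equal values, those without HpaII tags included, was counted once. Sites were classed by how many other sites of the files lay within 500 bp, and the 2 kinds had similar make-up, as 38.9% of shared-tag and 39.2% of whole-tag sites were isolated (no neighbour) and 10.1% and 11.8% were clustered (5 or more neighbours). Clustered sites, the CpG-rich part of the genome, had a mean m-score of 55.9 ± 1.09 at shared-tag and 70.4 ± 1.42 at whole-tag sites (SD over the 8 samples), a difference of -14.5 ± 0.35. Isolated sites had 15.9 ± 1.60 and 19.2 ± 1.73, a difference of -3.23 ± 0.22, whereas with 1 to 4 neighbours the levels were 18.5 ± 0.73 and 25.8 ± 0.97, which differed by -7.34 ± 0.32. Each difference was below 0 in 8 of 8 samples (exact paired permutation tests, p = 0.0078, adjusted p = 0.0078). For sites with a fraction in the MspI tags the differences were -19.7, -4.42 and -9.27 in that order of classes. With 1 to below 50 MspI tags they were -23.8, -8.00 and -12.5, and with 20 to below 50 the isolated sites differed by -1.85. With every set of equal values counted once they were -14.3, -9.91 and -15.4, so that the widest gap was then at sites with 1 to 4 neighbours. That step also merges sites without HpaII tags that happen to have the same MspI value. With only the sets having tags in all 8 samples counted once they were -16.6, -4.44 and -8.93, widest at clustered sites. Whether the 3 gaps differ from each other was not tested.

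**Figure D2:**
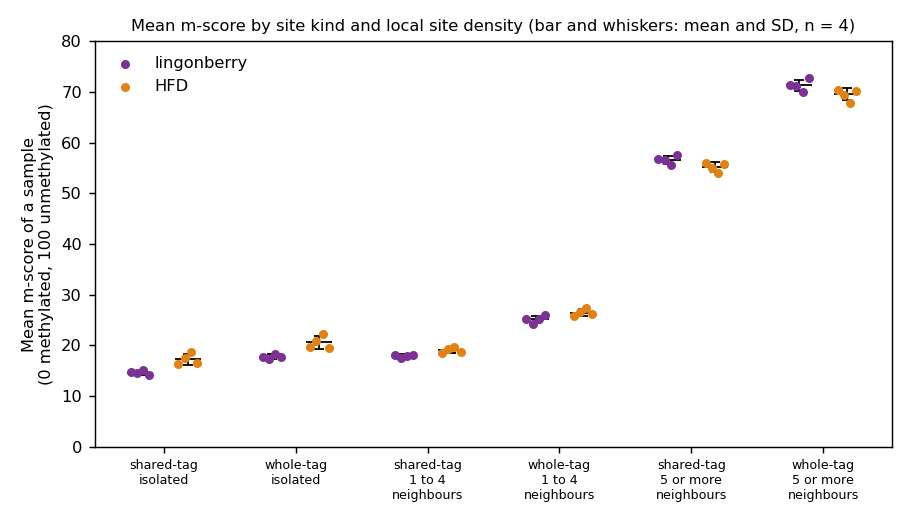
Mean m-score of each sample (points) with the group mean and SD (bar and whiskers, n = 4) for shared-tag and whole-tag sites with no, 1 to 4, and 5 or more neighbours within 500 bp. Shared-tag sites with 5 or more neighbours sit at 54.0 to 57.5, below the 67.9 to 72.7 of whole-tag sites.

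Sites whose MspI tags were in steps of 0.5 had a higher m-score than sites with larger denominators. For the 35360 sites with a fraction in the MspI tags, the smallest denominator that made the MspI value whole was determined. It is not a number of places, since tags divided among different numbers of places add up to a larger denominator than any one of them has. The denominator was 2 at 13534 sites (38.3%), 3 at 5419 and 4 at 2507, while 4547 sites had none up to 20. The mean m-score was 23.1 ± 0.87 at denominator 2, 20.8 ± 1.04 at 3, 18.2 ± 1.01 at 4, 18.1 ± 1.22 at 5 and 12.4 ± 1.21 at 8 (SD over the 8 samples). Sites with no denominator up to 20 had 10.7 ± 0.65. The order was not strict, since denominator 10 had 16.2 ± 1.05 and denominators 11 to 20 had 14.04 ± 0.61. Denominator 2 was above denominators over 4, with those having none up to 20 included (13900 sites, 14.1 ± 0.81), by 8.97 ± 0.10, and in 8 of 8 samples (exact paired permutation test, p = 0.0078, adjusted p = 0.0078). With sites weighted to the same MspI tags and neighbour numbers the difference was 7.85. Isolated sites made up 37.6% at denominator 2 and 41.5% over 4, and the median MspI tags were 21.5 and 19.1. Sites of denominator 2 were themselves below whole-tag sites, by -5.42 ± 0.25 (exact p = 0.0078, adjusted p = 0.0078). That value was -9.42 with 1 to below 50 MspI tags and -11.5 with every set of equal values counted once. With only the sets having tags in all 8 samples counted once it was -6.76. These divisions by neighbours and by denominator were made after the data were seen.

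**Figure D3:**
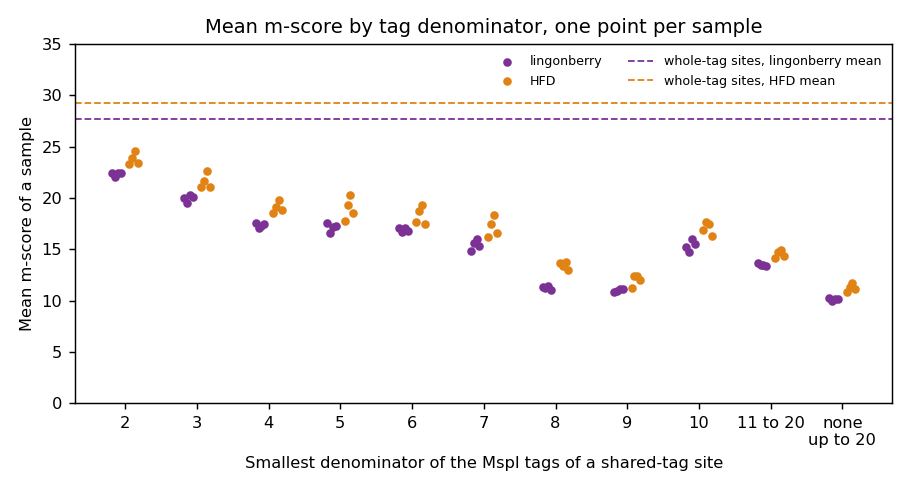
Mean m-score of each sample (points) for shared-tag sites by the smallest denominator of their MspI tags, with the group means of whole-tag sites as dashed lines. The samples lie at 22.1 to 24.6 at denominator 2 and at 9.94 to 11.7 where no denominator up to 20 was found, all below the dashed lines at 27.7 and 29.2.

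Shared-tag sites were grouped along the genome. Of the in-range sites within 500 bp of a shared-tag site, 45.0% were shared-tag sites themselves, against 2.64% of those within 500 bp of a whole-tag site and 5.53% of the range. The commonest distances to the next shared-tag site were 29, 31 and 33 bp, with 93, 83 and 78 pairs. They held 1.35%, 1.21% and 1.13% of the 6878 distances up to 500 bp. The same distances held 0.572%, 0.592% and 0.573% of the 260587 distances up to 500 bp between whole-tag sites. They were picked as the commonest at shared-tag sites, a choice that favours higher shares there, so no difference in spacing is read from them. On single chromosomes the shared-tag share ran from 4.15% on chromosome 11 to 8.61% on chromosome 17. On each of the 19 autosomes the mean m-score was lower at shared-tag than at whole-tag sites, by -10.2 on chromosome 16 at one end and by -3.35 on chromosome 17 at the other.

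Dense runs of shared-tag sites occurred at either end of the methylation scale. There were 278 runs of 5 or more shared-tag sites in which each lay within 500 bp of the next, and they held 1838 sites. Of these runs 103 had a mean m-score below 25, 92 lay from 25 to below 75 and 83 were at 75 or above. The highest was the run of 11 sites on chromosome 3 from 91884565 to 91885660, with 89.2, 90.5, 87.8 and 88.8 in the lingonberry samples and 89.5, 89.8, 88.7 and 87.7 in the HFD samples, from 3772.5 HpaII tags. Next was a run of 6 sites on chromosome 14 from 27077776 to 27078653, with 86.6 ± 2.50 with lingonberries and 86.4 ± 1.36 with HFD (SD, n = 4). The means of both runs were at 75 or above in every sample, though values within them went down to 61.4 on chromosome 3 and 53.5 on chromosome 14. At the other end, 7 sites on chromosome 2 from 6416524 to 6417034 and 9 sites on chromosome 17 from 5241036 to 5241663 had no HpaII tag in any sample. A count of 0 allows up to 3 tags over such a run in a sample, which would give an m-score of 2.16 to 5.93 for the run on chromosome 2 and 2.21 to 6.06 for that on chromosome 17.

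A few regions held many shared-tag sites. Among 2417 bins of 1 Mb the median bin held 13, and the 25 richest held 8.86% of all. The richest was chromosome 17 from 6000001 to 7000000, where 490 of 687 in-range sites were shared-tag sites. Its shared-tag mean was 25.5, 23.7, 23.4 and 25.5 with lingonberries and 25.6, 26.9, 26.4 and 26.1 with HFD, beside a whole-tag mean of 25.7 ± 0.80 over the 8 samples. All HFD samples lay above all lingonberry samples there, and the means were 24.5 ± 1.13 and 26.3 ± 0.54 (SD, n = 4). The next was chromosome 4 from 42000001 to 43000000, where 461 of 548 sites were shared-tag sites and the mean was 40.1 ± 0.30 with lingonberries and 41.1 ± 0.65 with HFD. That bin holds much of the set of 10 sites on chromosome 4 described above and also 9 pairs exactly 639968 bp apart with a mean m-score of 68.8. The third was chromosome 17 from 7000001 to 8000000, with 189 sites and means of 21.4 ± 1.00 and 23.2 ± 1.58. No test was made on these bins.

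The lower level of shared-tag sites did not extend to all regions rich in them. Of the 106 bins with at least 50 shared-tag and 10 whole-tag sites, 61 had a lower and 45 a higher mean m-score at shared-tag sites. In the 20 of these bins where shared-tag sites made up 50% or more, 13 had the higher mean at shared-tag sites, and in the 48 where they made up below 20%, 18 had. Where shared-tag sites made up most of a bin, its whole-tag mean could rest on few sites, with 10 as the minimum. The bins named next were chosen after their values were seen. On chromosome 4 from 145000001 to 146000000, 158 of the 179 in-range sites were shared-tag sites. These had 36.7 ± 1.37 (SD over the 8 samples) and the few remaining whole-tag sites 13.8 ± 2.05, and 32.9% and 4.76% of them were clustered. On chromosome 3 from 96000001 to 97000000, 153 shared-tag sites had 55.7 ± 0.87 and whole-tag sites 37.8 ± 0.95, and 28.1% and 14.4% were clustered. On chromosome 14 from 57000001 to 58000000, 50 shared-tag sites had 48.7 ± 1.39 and whole-tag sites 27.7 ± 1.02, and 56% and 12.9% were clustered. In the opposite direction, on chromosome 12 from 5000001 to 6000000 the 50 shared-tag sites had 1.64 ± 0.86 and whole-tag sites 21.997 ± 1.41, although 88% of these shared-tag sites were clustered. Its values were 1.32, 0.705, 1.18 and 2.11 with lingonberries and 3.44, 0.926, 1.65 and 1.75 with HFD. These are CpG-dense sites at the methylated end in all 8 samples. On chromosome 19 from 8000001 to 9000000 the 62 shared-tag sites had 16.3 ± 2.37 against 37.2 ± 0.91, and 6.45% against 25.1% were clustered. On chromosome 5 from 138000001 to 139000000 the 85 shared-tag sites had 14.7 ± 1.31 against 34.2 ± 0.88, and 7.06% against 21.4% were clustered. In each bin of this paragraph except that on chromosome 12, the kind with more clustered sites had the higher m-score. The part of site density in these differences was not tested.

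**Figure D4:**
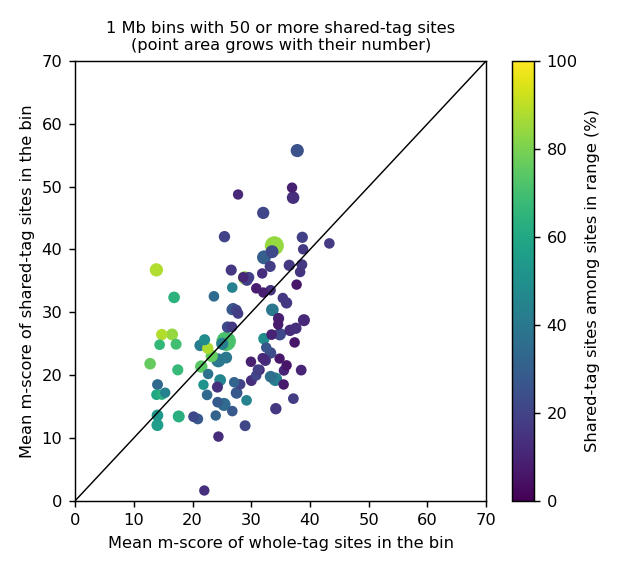
Mean m-score over the 8 samples of shared-tag sites (vertical axis) and whole-tag sites (horizontal axis) in the 106 bins of 1 Mb with at least 50 shared-tag and 10 whole-tag sites, coloured by the share of shared-tag sites (%) and with an area that grows with their number, beside the line of equal values. Of the points 61 lie below the line and 45 above it, and the lowest point, at 1.64, is the bin on chromosome 12.

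The shared-tag sites with most HpaII tags formed a pair on chromosome 4, at 145953738 and 146499098, which lie the 545360 bp apart given above. Each held 309, 196, 84.7 and 176 HpaII tags in the lingonberry samples and 120, 99.7, 99.5 and 91.0 in the HFD samples, against 47 MspI tags. The m-scores were 94.8, 94.9, 92.8 and 94.2 with lingonberries and 94.1, 93.4, 94.1 and 91.8 with HFD. Both sites lay near the unmethylated end of the scale in all samples and did not pass the test between diets (limma adjusted p = 0.997).

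At matched m-score and MspI tags, values of shared-tag sites varied less between samples than those of whole-tag sites. Sites with a mean m-score of at least 5 were matched in 18 classes by mean m-score and MspI tags, and the median SD within a group was lower at shared-tag sites in 18 of 18 classes, at 0.834 to 0.942 of the whole-tag value. For sites with m-scores of 30 to below 50 and 10 to below 20 MspI tags it was 16.9 at 1813 shared-tag and 19.5 at 35706 whole-tag sites. This is a description, as the classes use the same 8 samples. The classes also match tags after division. If tags are divided among places, an equal value at a shared-tag site rests on more counted tags and has less counting error. The comparison therefore cannot show that shared-tag sites are steadier, and the part of counting error was not tested.

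**Figure D5:**
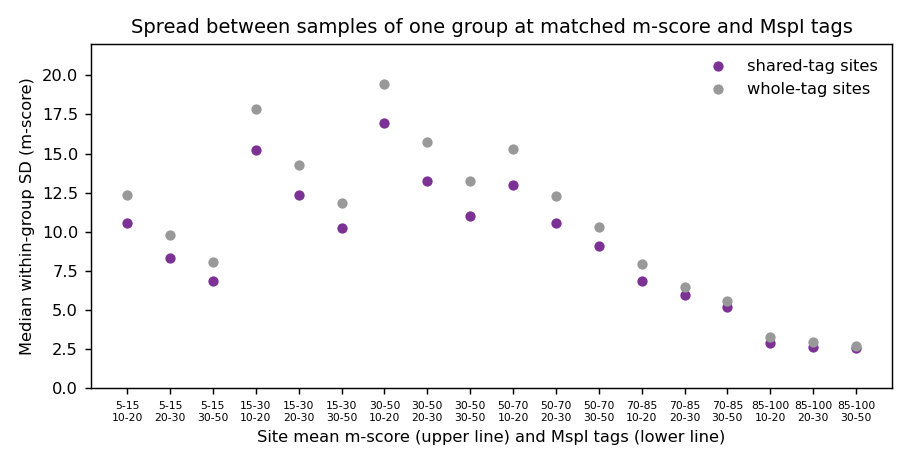
Median SD of the m-score between samples of one group, for shared-tag and whole-tag sites in 18 classes of mean m-score and MspI tags. The shared-tag point is below the whole-tag point in each class, by 16.9 against 19.5 in the class with the widest spread.

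Between the diets, the mean m-score of shared-tag sites was lower with lingonberries, but no comparison over samples passed the correction for the 9 that were made. The mean was 20.5 ± 0.21 with lingonberries and 21.99 ± 0.60 with HFD (SD, n = 4), a difference of -1.46 ± 0.32 (SE), and the groups did not overlap (two-sided exact permutation test, p = 0.0286, the smallest possible for 4 against 4, adjusted p = 0.0514). The adjusted p cannot fall below 0.05 unless more of the 9 comparisons reach the smallest p. Whole-tag sites differed by -1.53 ± 0.43 (SE). Shared-tag minus whole-tag differed between the diets by 0.071 ± 0.17 (SE, exact p = 0.629, adjusted p = 0.629), so no separate diet difference of shared-tag sites was detected, and this does not show that there is none. The value was not stable. It was 0.581 with 1 to below 50 MspI tags, 0.257 with every set of equal values counted once, 1.25 as a difference of medians over sites and 0.131 with whole-tag sites weighted by MspI tags and neighbours. It was 0.212 without lingonberry sample 4 (exact p = 0.0286, adjusted p = 0.0514), 0.0279 without HFD sample 3 and -0.0497 without lingonberry sample 2. With sites of 1 to below 50 MspI tags the difference of the shared-tag mean was -0.849 (exact test, adjusted p = 0.0514). For sites with a fraction in the MspI tags, whose choice does not use HpaII tags, it was -1.455 (exact test, adjusted p = 0.0514).

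By local density, the diet difference was below 0 at shared-tag sites with few neighbours and above 0 at clustered ones. Isolated shared-tag sites had 14.7, 14.5, 15.1 and 14.2 with lingonberries and 16.4, 17.5, 18.7 and 16.4 with HFD, a difference of -2.64 ± 0.58 (SE) without overlap of the groups (exact p = 0.0286, adjusted p = 0.0514). With 1 to 4 neighbours the means were 17.9 ± 0.33 and 19.03 ± 0.52 (SD, n = 4) and differed by -1.14 (exact p = 0.0286, adjusted p = 0.0514), again without overlap. Clustered shared-tag sites lay the other way, at 56.6 ± 0.78 and 55.2 ± 0.92 (SD, n = 4), a difference of 1.41 with overlapping groups (exact p = 0.0857, adjusted p = 0.129). Whole-tag sites had the same signs, with differences of -2.80 at isolated sites, without overlap of the groups, -1.32 with 1 to 4 neighbours and 1.80 at clustered sites, both with overlap. With 1 to below 50 MspI tags the differences at isolated sites and at sites with 1 to 4 neighbours were -1.31 and -0.724. For shared-tag sites with a fraction in the MspI tags they were -2.51 and -1.13, and 1.42 at clustered sites.

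Of shared-tag sites, 70.6% ± 0.85 had an m-score below 25 with lingonberries and 67.4% ± 1.59 with HFD (SD, n = 4, exact p = 0.0286, adjusted p = 0.0514), with no overlap of the groups, and the difference of 3.19 percentage points was 2.04 with sites of 1 to below 50 MspI tags. At whole-tag sites the same share differed by 3.35 percentage points, also without overlap. Those at 75 or above made up 7.98% ± 0.080 and 8.08% ± 0.17 (exact p = 0.343, adjusted p = 0.441). That difference of -0.0963 percentage points was 0.108 with 20 to below 50 MspI tags and -0.380 with 1 to below 50, and it was -0.0343 without HFD sample 1 and -0.167 without HFD sample 4. Sites without an HpaII tag made up 31.6%, 36.9%, 45.1% and 35.2% in the lingonberry samples and 39.8%, 38.9%, 39.3% and 39.0% with HFD (exact p = 0.514, adjusted p = 0.579). The lowest of these shares was in the deepest library and the highest in the shallowest lingonberry library, and the part of depth in them was not tested. Without lingonberry sample 3 the difference in this share was -4.67 percentage points and without lingonberry sample 1 it was -0.159, against -2.03 with all samples. Shared-tag sites held 2.345%, 2.338%, 2.335% and 2.345% of the autosomal HpaII tags with lingonberries and 2.396%, 2.395%, 2.402% and 2.371% with HFD, a measure without the MspI reference. The groups did not overlap, and the difference of -0.0504 ± 0.0072 percentage points (SE) had an exact p of 0.0286 and an adjusted p of 0.0514. It was -0.0172 with 20 to below 50 MspI tags and -0.0759 with 1 to below 50, which change the number of sites summed. Sites with a fraction in HpaII tags only were chosen in part by the tags that this measure sums. With only the sites having a fraction in the MspI tags the difference was -0.0441 (exact p = 0.0286, adjusted p = 0.0514).

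At single sites, 5 of the 44400 shared-tag sites passed limma on the m-score, 1 higher and 4 lower with lingonberries (adjusted p below 0.05 over all 1310003 sites). That is 0.0113%, beside 0.0134% of all sites, and by direction 0.00225% higher beside 0.00397% and 0.00901% lower beside 0.00947%. At an unadjusted p below 0.05, 1874 shared-tag sites (4.22%) passed, beside 4.17% of all sites. Of these 645 (1.45%) were higher, beside 1.63% of all sites, and 1229 (2.77%) were lower, beside 2.54%. The shares were near the background of all sites, which includes sites outside the MspI range. Of whole-tag sites, 0.00949% passed after adjustment and 4.73% at an unadjusted p below 0.05. Of whole-tag sites 1.69% were higher and 3.03% lower at that unadjusted threshold. The share of shared-tag sites that were lower thus lay above that of all sites and below that of whole-tag sites. The median difference, lingonberry minus HFD, was -0.17 over shared-tag sites, -0.42 over whole-tag sites and 0 over all sites tested. Among sites with a mean of at least 1 HpaII tag it was -1.48, -1.17 and -0.86, so that the order of shared-tag and whole-tag sites turned. A limma fit to those 677906 sites, 21823 of them shared-tag sites, called 0 shared-tag sites and 0 over all. At an unadjusted p below 0.05 it had 924 shared-tag sites (4.23%) beside 5.22% of all sites tested.

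The 5 called sites rested on a few tags against none. At chromosome 5, positions 112747579 and 112748100, which had equal values, each HFD sample had 0.5 of an HpaII tag and no lingonberry sample had any, as a single tag a sample counted at both sites would give. The m-scores were 3.10, 3.34, 3.71 and 2.93 with HFD and 0 with lingonberries (limma adjusted p = 0.00611). The site at chromosome 9, position 57559759, had 1.00 tag in each HFD sample and m-scores from 9.21 to 11.6 (limma adjusted p = 0.00720), and that at chromosome 12, position 9625519, had 1.00 tag in each HFD sample and m-scores from 14.9 to 18.6 (limma adjusted p = 0.0392). The latter lies outside the rule for naming sites and is given because it completes the 5. In the other direction, the site at chromosome 17, position 38657948, had 1.2, 1, 0.5 and 1 tags with lingonberries and none with HFD, with m-scores of 7.26, 9.72, 7.96 and 9.50 against 0 (limma adjusted p = 0.0184). The sites next in order, at chromosome 7, position 19342374, and chromosome 5, position 8234996, did not pass (limma adjusted p = 0.0551 and 0.189). They had m-scores from 3.32 to 5.10 and from 11.4 to 18.0 with lingonberries and 0 with HFD. A count of 0 in a sample allows up to 3 tags, which at the site on chromosome 9 would give an m-score of 12.7 to 31.1 in the lingonberry samples. The HFD values of that site lie below this range, so a 0 in any single lingonberry sample does not set it apart from HFD. This bound is for undivided tags in single samples, and none was computed over the lingonberry samples together. It therefore cannot decide whether the difference between the groups is beyond what the depth leaves undetected. Leaving out single samples changed the number of called sites to between 8 and 27, each more than 1.5 times the 5. It was 9, 8, 27 and 9 without lingonberry samples 1 to 4 and 25, 14, 17 and 20 without HFD samples 1 to 4. Over all 1310003 sites the calls also rose above the 176 made with all samples. There were 363, 290, 699 and 216 without lingonberry samples 1 to 4 and 656, 556, 592 and 641 without HFD samples 1 to 4. Of the 27 shared-tag sites called without lingonberry sample 3, 23 were higher with lingonberries. Of the 25 called without HFD sample 1, 24 were lower. The calls over all sites are not split here by direction.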

How the data were processed

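HELP-tagging libraries of HpaII-digested liver DNA from 8 mice, 4 a group, were analysed. Per the file headers, the authors deposited for each sample an m-score, a score from 0 to 100, and a value named conf, handled here as a signal. Their meaning was worked out from the values: the angle and the length of the vector of MspI and HpaII tags. The submitters' processing notes name build mm9 and CASAVA. The aligner, the MspI origin and the tag filters were not given in the sources used here.

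The sine component gave HpaII tags. The cosine component gave MspI tags once divided by the commonest value at m-score 0 and were taken as the median of the 8 files. Values within 0.05 of a whole number were rounded before the bounds of 10 and 50 were applied. Members and comparisons were chosen with earlier results of these data known. Sites were named by lowest limma p (3 each way), number of HpaII tags (2), set size (2), 1 Mb bins (3), distances (3) and runs (2 at each end), passing over chromosome 18. Diets were tested by exact permutation of the 70 assignments, two-sided, and site kinds within samples by exact sign flips, with Benjamini-Hochberg adjustment over 9 and 6 comparisons. Sites were tested with limma 3.58.1 in R 4.3.3 (mean trend). The computations were tested on simulated data for the lingonberry against HFD comparison. There, limma on the m-score called 94 of 200 simulated 4-fold changes among 50000 sites and 0 unchanged sites. The simulated sites had a mean of at least 0.5 HpaII tags, and changes were placed only at an expected mean of at least 3. Tags were drawn as whole counts with counting error only, without division among places or variation between mice. The numbers of sites called are not split by number of tags. They therefore give no rate of recovered changes or of false calls at sites with a few tags against none, such as the called shared-tag sites. The tag alternatives used log2 of HpaII tags per 1000000 plus 0.5.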

Additional observations from a re-analysis of the deposited data

Results flagged for a closer look

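The mean m-score of shared-tag sites in lingonberry sample 2, 20.2, lay apart from the other 3 lingonberry samples, which were within 20.6 to 20.7. The percentage of whole-tag sites without an HpaII tag was 35.1% in HFD sample 1, apart from the other 3 HFD samples. These came from 72 groups of 4 values examined for a sample far from the others, in which chance gives about 3.6. The count of 3 includes the shared-tag mean under 2 names.

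The diet difference had opposite signs at isolated and clustered shared-tag sites. Isolated minus clustered was -42.0 ± 1.14 with lingonberries and -37.9 ± 2.01 with HFD (SD, n = 4), a difference of -4.05 ± 1.16 (SE) without overlap of the groups (exact permutation test, p = 0.0286). At whole-tag sites the same contrast differed by -4.60 ± 1.39 (SE). The contrast of shared-tag against whole-tag sites differed between the diets by 0.55 ± 0.25 (SE, exact permutation test, p = 0.0571).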

How the results depend on the processing

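The lower m-score of shared-tag than whole-tag sites, in all and by neighbours and denominator, kept its direction and its side of the threshold under each alternative run for it. Without 1 sample it was -7.27 to -7.15 in all, and no diet comparison over samples passed after adjustment in any alternative. The shared-tag mean then differed by -1.64 to -1.20, isolated sites by -2.93 to -2.15, sites with 1 to 4 neighbours by -1.31 to -0.914 and clustered sites by 1.00 to 1.75. Signs turned in comparisons that passed no test. The share at 75 or above differed by 0.108 with 20 to below 50 MspI tags (adjusted p = 0.546, exact test), and shared-tag minus whole-tag differed between diets by -0.0040 on log2 tags (adjusted p = 0.514) and, without 1 sample, by -0.050 (without lingonberry sample 2) to 0.21 (without lingonberry sample 4, exact p = 0.0286, adjusted p = 0.0514). In the other direction it was 0.581 with 1 to below 50 MspI tags (exact p = 0.114), 0.257 with every set of equal values counted once and 1.25 as a median over sites (exact p = 0.114). The share at 75 or above differed by -0.167 to -0.0343 without 1 sample. The limma count was 0 among sites with a mean of at least 1 HpaII tag, where fewer sites were tested, and 8 to 27 without 1 sample. Over all sites tested it was 0 and 216 to 699 under the same settings. The cause was not tested. Counting sets with tags in all 8 samples once and leaving MspI values unrounded were added after the data were seen. No paired analysis was possible because the labels give no number shared between the groups. With a median below 1 HpaII tag a sample, single sites are limited by depth.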
